A study of Drosophila melanogaster with 12 samples.

Results

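The 6 genes described here, *GstE1*, *GstE3*, *GstE5*, *GstE6*, *GstE7* and *GstE9*, encode epsilon class glutathione S-transferases of *Drosophila melanogaster*. They were taken by symbol from tables of 14210 genes in FPKM, a level normalised to transcript length and to library size. They were chosen by their FPKM in the same 4 groups of libraries and by how these changed on *barc* depletion, so both are given as a description with no test. The tables hold 8 other epsilon class genes.

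Glutathione S-transferases are soluble enzymes that join the thiol of reduced glutathione to electrophilic compounds, which makes these more soluble and ready for export. The epsilon and delta classes belong to insects and related arthropods, act on plant toxins, insecticides and products of lipid peroxidation such as 4-hydroxynonenal, and are often induced by stress. Several of their genes are targets of CncC, the fly counterpart of the mammalian oxidative stress regulator Nrf2, which Keap1 holds inactive.

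Polyadenylated RNA was sequenced in 12 libraries from 2 systems, with and without depletion of *barc*, which codes for barricade, a splicing factor called Tat-SF1 in humans. Type I neuroblasts, which divide to form the fly's central brain and nerve cord, were isolated by FACS from brains dissected at the late last larval instar after growth at 29 °C. All of these larvae carried dicer2, asense-Gal4 and UAS-CD8::GFP, so that the GFP and any RNAi hairpin were expressed wherever the asense driver was active. The controls also carried the empty landing site VIE-260B (2 libraries), and the depleted animals a *barc* RNA interference (RNAi) transgene (2 libraries). S2 cells, a line of embryonic origin with blood cell features, were grown in Schneider's medium with 10% heat-inactivated serum and given double-stranded RNA (dsRNA) for 7 days, against mCherry in 4 control libraries and against *barc* in 4 others. Neuroblast libraries were prepared manually (Kapa kit) and those of S2 cells robotically (NEB kit), so kit and system cannot be told apart. The labels do not say whether replicates were separate cultures or cohorts of larvae. All p-values below thus reflect library-to-library spread, part or all of which may be technical.

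Library depth, taken from the confidence interval of each FPKM value, was between 14.6 and 48.7 M (M, 1000000) implied fragments. The targeted gene stood at 86.4 and 94.0 FPKM in the control neuroblasts and at 15.1 and 17.9 FPKM after *barc* RNAi. In S2 cells *barc* was at 21.1, 23.9, 20.9 and 22.3 FPKM with mCherry dsRNA and at 7.32, 4.27, 3.02 and 3.22 FPKM with *barc* dsRNA, so every depleted library lay below every control in both systems. Neuroblast markers summed to between 1476 and 1509 FPKM in the control and between 1367 and 1382 FPKM in the depleted neuroblast libraries. In S2 cells they summed to at most 2.26 FPKM in controls and 35.3 FPKM after depletion, the latter nearly all *insc* (35.0 FPKM). In S2 cells 5 hemocyte markers summed to between 287 and 387 FPKM, of which *crq* alone held 277 to 370 FPKM. *Hml*, *Sr-CI*, *Pxn* and *eater* were each at 9.37 FPKM or less there. Descriptions of the S2 samples carry a first number that is shared by replicates 1 and 2 and by replicates 3 and 4 of both treatments, and whose meaning the labels do not give. These 2 pairs of replicates differed across the transcriptome and are shown apart for the 6 genes. A limma fit called 42.9% of 6732 tested genes changed in neuroblasts (19.1% higher and 23.8% lower) and 26.7% of 7603 in S2 cells (11.5% higher and 15.2% lower), at a Benjamini-Hochberg adjusted p under 0.05. Of the calls, 44.4% were higher in neuroblasts and 43.2% in S2 cells, against 66.5% and 53.3% after rescaling to TPM.

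All 6 genes lie on the right arm of chromosome 2 (2R) in a cluster of 10 *GstE* genes that spans 13198 bases, from 14284143 to 14297340 in the coordinates of the tables, on a build not given in the sources used here. Gene order along the arm is *GstE10*, *GstE1*, *GstE2*, *GstE3*, *GstE4*, *GstE5*, *GstE6*, *GstE7*, *GstE8* and *GstE9*. In the release 6 annotation the 6 genes are on the plus strand and each has a single exon, so none has an intron to be spliced, whereas *GstE10* is on the minus strand with 3 exons. Genes without introns made up 9.0% of the annotated tested genes of the neuroblast fit, with a median log2 change of 0.01 against -0.02 for the others. Of the genes without introns 23.8% were called higher and 18.2% lower in that fit, against 18.5% and 24.5% of those with introns. The S2 fit did not show this excess of higher calls. There 9.76% of the genes without introns were called higher, against 11.5% of those with introns, and they were also called lower less often. Their median log2 change in S2 cells was -0.08, against -0.06 for genes with introns. *GstE6* (14293518 to 14294266), *GstE7* (14294425 to 14295193) and *GstE8* (14295339 to 14296067) are the closest neighbours, 158 and 145 bases apart. *GstE5* spans 14292125 to 14292843, *GstE3* 14288222 to 14288972 and *GstE1* 14285898 to 14286728. *GstE9* (14296516 to 14297340) overlaps by 45 bases the end of *imd*, a gene of the immune deficiency pathway on the opposite strand, and the strand setting of the counting is not given. The 10 genes are related in sequence, and how fragments matching several of them were divided is also not given.

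In neuroblasts *GstE5*, *GstE6* and *GstE7*, 3 adjacent genes, were far higher after *barc* RNAi, whereas the groups overlapped for *GstE1* and *GstE9* near the ends of the cluster. *GstE6* had the largest difference of the 6. Control libraries held 3.01 and 3.72 FPKM and *barc* RNAi libraries 112 and 76.2 FPKM, a 28.0-fold higher mean level. The log2 change was 4.43 with a standard error (SE) of 0.30 from these libraries alone, on the log2(FPKM + 1) scale used for all changes below. Every *barc* RNAi library lay above both controls.

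*GstE5*, the neighbour of *GstE6* on one side, was barely detected in control neuroblasts, at 0.614 and 0.648 FPKM, which corresponds to 12 and 11 implied fragments. It reached 9.60 and 5.11 FPKM after *barc* RNAi, 11.7-fold higher, with a log2 change of 2.30 (SE 0.40). *GstE7*, the neighbour on the other side, went from 2.83 and 2.42 FPKM to 20.02 and 13.5 FPKM with *barc* RNAi, 6.39-fold higher (log2 change 2.27, SE 0.28). Neither gene had a control library that reached a depleted one.

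*GstE3* was at 0.599 and 0.368 FPKM in control neuroblasts, 13 and 7 implied fragments, and at 2.34 and 1.29 FPKM after *barc* RNAi. That was 3.75-fold higher (log2 change 0.90, SE 0.29), again without overlap between the groups, though at a level that remained low. *GstE1*, farther out, measured 2.68 and 3.48 FPKM in control libraries against 5.68 and 3.27 FPKM in depleted ones. Its groups overlapped, since the second depleted library lay below the second control (log2 change 0.40, SE 0.35). *GstE9*, at the other end, was read from few fragments throughout, with 0.815 and 0.509 FPKM in control against 0.625 and 0.739 FPKM in depleted libraries, or between 10 and 23 implied fragments. Its groups overlapped and its log2 change was 0.02 (SE 0.14), with a sign that turned under quantile normalisation (-0.06).

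Thus 4 of the 6 genes lay above both controls in both *barc* RNAi libraries, a separation shown by 34.8% of all tested genes in that direction, and none lay below (39.9% of all tested genes). Of the 6, 5 had a mean of at least 1 FPKM in neuroblasts and entered the fit, which called those 4 higher, beside 19.1% of all tested genes. Of these, *GstE3* and *GstE5* reached that mean only through their *barc* RNAi libraries, with control means of 0.484 and 0.631 FPKM. These counts restate the values by which the genes were picked. The median log2 change of the 6 genes was 1.59, against -0.02 over all tested genes.

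**Figure D1:**
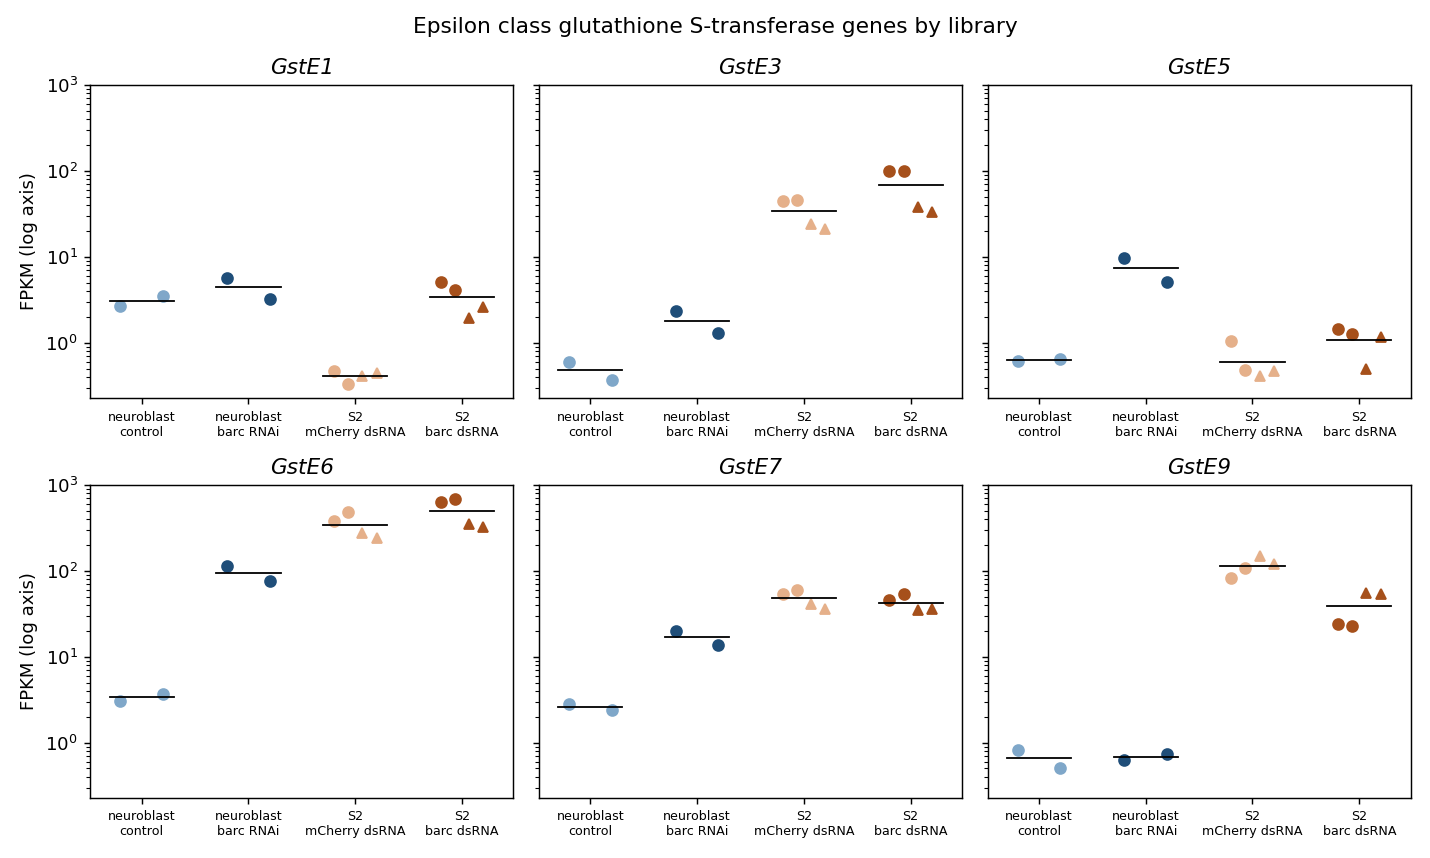
FPKM of the 6 genes in each of the 12 libraries, on a log axis, with 1 panel per gene; dots are libraries (in S2 cells, dots for replicates 1 and 2 and triangles for replicates 3 and 4) and black lines are group means. *GstE6* stood near 3 FPKM in control neuroblasts and at 76.2 FPKM or more after *barc* RNAi, whereas *GstE9* was under 1 FPKM in all neuroblast libraries and lower with *barc* dsRNA in S2 cells.

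The 2 *barc* RNAi neuroblast libraries differed from each other in the same way for most of the cluster. The level in the first over that in the second was 1.74 for *GstE1*, 1.81 for *GstE3*, 1.88 for *GstE5*, 1.47 for *GstE6*, 1.48 for *GstE7* and 1.495 for the neighbour *GstE8*, and 0.845 for *GstE9*. Over 6729 tested genes this ratio had a median of 0.996, with 95% of genes between 0.762 and 1.34. A higher level in the first library was not particular to the cluster. The 5 tested delta class transferase genes had it too, by differing amounts. They stood at 136 and 120 FPKM (*GstD1*), 10.1 and 7.86 FPKM (*GstD3*) and 20.7 and 9.75 FPKM (*GstD5*). *GstD6* was at 2.21 and 1.51 FPKM and *GstD9* at 34.4 and 29.9 FPKM. The first library was also the one with the lower *barc* level (15.1 against 17.9 FPKM), and the part of this in the ratios was not tested.

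Markers of neuroblasts and of other cell types moved in the same libraries. Of 6 tested neuroblast markers 2 fell and 0 rose. Glial markers summed to 199 and 203 FPKM in the control neuroblasts and to between 121 and 135 FPKM after *barc* RNAi. Nearly all of this came from *Eaat1* and *nrv2*, the tested markers, which both fell. *repo*, *moody*, *wrapper* and *alrm* were at 0.409 FPKM or less in every neuroblast library. At that low level *repo* and *wrapper* were higher in both *barc* RNAi libraries than in both controls, and *moody* and *alrm* overlapped. Neuronal markers summed to 37.2 and 38.6 FPKM without and 45.6 and 46.2 FPKM with depletion (2 of 3 tested rose and 1 fell), and hemocyte markers to between 39.39 and 40.005 FPKM and between 32.4 and 34.9 FPKM (2 of 2 fell). Most of the hemocyte sum was *crq*, at 35.0 and 35.2 FPKM without and 29.2 and 32.1 FPKM with depletion. The part of these cells in the *GstE* levels was not tested. The 6 markers of the fat body, a tissue rich in detoxifying enzymes, summed to at most 0.578 FPKM in any neuroblast library, with *Lsp1alpha* and *Fbp2* at 0 in all of them. In sorted cells, as in any bulk RNA, more RNA per cell and more cells that contain it cannot be told apart.

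In S2 cells the same genes started from other levels and were changed in other ways. *GstE6* was again the most abundant of the 6, already at 381, 482, 274 and 239 FPKM with mCherry dsRNA, and at 634, 684, 353 and 323 FPKM with *barc* dsRNA. The groups overlapped over all 8 libraries. Within replicates 1 and 2, and within replicates 3 and 4, each *barc* library lay above each control, 1.53-fold and 1.32-fold higher in the mean. The log2 change over all libraries was 0.51 (SE 0.36).

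*GstE1* was the gene of the 6 that was higher in every depleted S2 library. It was read from few fragments with mCherry dsRNA, at 0.476, 0.334, 0.408 and 0.445 FPKM or 7 to 9 implied fragments, and reached 5.12, 4.15, 1.95 and 2.62 FPKM with *barc* dsRNA, from 29 to 75 implied fragments. The mean was 8.32-fold higher (log2 change 1.60, SE 0.24), 11.4-fold within replicates 1 and 2 and 5.35-fold within replicates 3 and 4. Every depleted library lay above every control, as for 14.1% of all tested genes in S2 cells.

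*GstE9*, which was under 1 FPKM in neuroblasts, was the second most abundant of the 6 in control S2 cells and the one that was lower in every depleted library than in every control. It stood at 81.9, 108, 149 and 120 FPKM with mCherry dsRNA and at 23.9, 22.9, 55.7 and 53.3 FPKM with *barc* dsRNA. The mean was 2.95-fold lower over all libraries (log2 change -1.62, SE 0.39), 4.06-fold within replicates 1 and 2 and 2.47-fold within replicates 3 and 4. Every depleted library lay below every control, as for 18% of all tested genes. The overlapping gene *imd* was at a mean of 24.5 FPKM in the controls and 20.8 FPKM after depletion (log2 change -0.21, SE 0.14, limma adjusted p = 0.267), and was called lower without mCherry library 4 (0.0325) and within replicates 1 and 2 (0.00652).

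*GstE3* was at 44.1, 45.8, 24.3 and 21.1 FPKM with mCherry dsRNA and at 99.7, 99.4, 38.5 and 33.6 FPKM with *barc* dsRNA, a log2 change of 0.89 (SE 0.50). The groups overlapped over all libraries because the pairs of replicates differ, whereas within each pair the depleted libraries were higher, 2.21-fold and 1.59-fold. *GstE7* measured 53.4, 59.7, 41.5 and 35.7 FPKM with mCherry dsRNA against 45.6, 53.2, 35.3 and 35.5 FPKM with *barc* dsRNA, with overlapping groups and a log2 change of -0.15 (SE 0.22). Its depleted libraries were lower within each pair, by a mean ratio of 0.874 and 0.917. *GstE5* ranged from 0.408 to 1.06 FPKM with mCherry dsRNA and between 0.493 and 1.43 FPKM after depletion, from 6 to 16 implied fragments in any S2 library, with overlapping groups. Within each pair its depleted libraries were higher, 1.76-fold and 1.89-fold in the mean. Its mean over the S2 libraries was under 1 FPKM and it did not enter the fit.

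Of the 5 genes that entered the S2 fit, 1 was called higher (*GstE1*) and 1 lower (*GstE9*), beside 11.5% and 15.2% of all tested genes. *GstE1* reached the mean of 1 FPKM needed for entry only through its *barc* dsRNA libraries (control mean 0.416 FPKM). These counts, too, restate the values by which the genes were picked. The median log2 change of all 6 in S2 cells was 0.44 against -0.06 over all tested genes. The authors' deposited tables of group comparisons, from normalised count means, gave log2 ratios in neuroblasts of 0.50 for *GstE1*, 1.91 for *GstE3*, 3.74 for *GstE5*, 4.85 for *GstE6*, 2.65 for *GstE7* and -0.11 for *GstE9*. For S2 cells the authors' deposited table gave 3.10, 1.05, 0.89, 0.56, -0.19 and -1.55 in the same order of genes. With a pseudocount of 0.1 in place of 1, the log2 change computed here was 3.28 for *GstE5* in neuroblasts and 2.70 for *GstE1* in S2 cells.

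**Figure D2:**
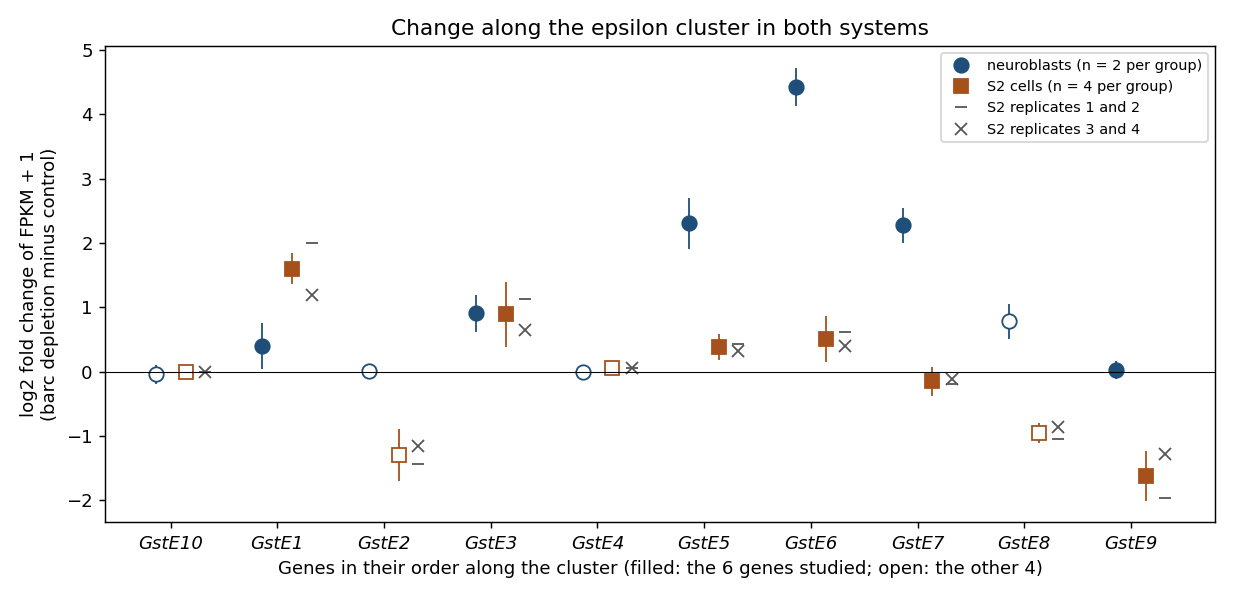
Log2 fold change of FPKM + 1 on *barc* depletion (vertical axis) for the 10 cluster genes in their order along the arm (horizontal axis); circles are neuroblasts, squares S2 cells, bars the SE from the libraries of that gene, and the dash and the cross the S2 replicate pairs. In neuroblasts *GstE5*, *GstE6* and *GstE7* stand at 2.30, 4.43 and 2.27. In S2 cells the values have both signs with no steady slope. *GstE1*, *GstE2* and *GstE3* stand there at 1.60, -1.30 and 0.89, and *GstE9* at -1.62.

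Neighbours from *GstE5* to *GstE8* were thus all higher in neuroblasts, by differing amounts, and changes in S2 cells had both signs along the cluster. *GstE8*, which is not one of the 6 and could be tested, rose in neuroblasts from a mean of 7.83 to 14.4 FPKM (log2 change 0.78, SE 0.15, limma adjusted p = 0.00371). It fell in S2 cells, from 101 to 52.0 FPKM (log2 change -0.95, SE 0.15, limma adjusted p = 0.00400). The change in S2 cells minus that in neuroblasts was -1.73 (SE 0.27, limma interaction adjusted p = 0.00634), a call made for 3.60% of 6298 genes in that test. *GstE2*, between *GstE1* and *GstE3*, was at 0.0897 FPKM or less in all neuroblast libraries. Its S2 level fell from 47.0 to 17.7 FPKM (log2 change -1.30, SE 0.34, limma adjusted p = 0.0241), and the call was lost without the first or the second mCherry library (adjusted p = 0.0663 and 0.0561) or after rescaling to TPM (0.0506). With the replicate block it stood at an adjusted p of 0.00200. *GstE4* and *GstE10* were at or near 0 in both systems. For the 6 genes themselves the difference between systems was not tested.

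Of the genes flanking the cluster, *CG12263* passed the test in S2 cells. On one side *Idgf5*, an imaginal disc growth factor gene, and the small genes *CG15065* and *CG15068* were at or near 0 FPKM in all libraries. On the other side *imd* (log2 change 0.01, SE 0.10, limma adjusted p = 0.925) and *Dp1*, an RNA-binding protein gene (-0.09, SE 0.055, adjusted p = 0.194), did not pass the test in neuroblasts. Over all S2 libraries *Dp1* did not pass (-0.19, SE 0.32, limma adjusted p = 0.674). It was called lower within replicates 1 and 2 (-0.76, adjusted p = 2.1e-04), while within replicates 3 and 4 its *barc* libraries lay above the controls (0.37, adjusted p = 0.224). *CG5174* was at 195 and 172 FPKM in the neuroblast groups but had a failed estimate in that fit, and its S2 change of -0.15 did not pass (limma adjusted p = 0.298), though it was called lower within replicates 1 and 2 (0.0210). *CG12263* fell in S2 cells (-0.75, SE 0.17, limma adjusted p = 0.0131), a call lost within replicates 3 and 4 (0.158). Its neuroblast change of -0.22 had an adjusted p of 0.0561, and was called without control library 2 (0.0273) or *barc* RNAi library 1 (0.0370).

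The make-up of the summed level shifted with these changes. The 6 genes summed to a mean of 10.8 FPKM in control neuroblasts and 125 FPKM after *barc* RNAi, 11.6-fold higher, and to 541 and 652 FPKM in S2 cells, 1.21-fold higher. In control neuroblasts *GstE6*, *GstE1* and *GstE7* held 28.6% to 33.3%, 25.4% to 31.2% and 21.7% to 26.8%. The levels of *GstE6* and *GstE1*, and of *GstE1* and *GstE7*, overlapped, while *GstE6* lay above *GstE7* in both libraries. After *barc* RNAi *GstE6* alone held 74.6% and 76.1%, followed by *GstE7* with no overlap between them. In S2 cells *GstE6* held 55.9% to 69.2% with mCherry dsRNA and 71.9% to 79.1% with *barc* dsRNA. The share of *GstE9* went from between 14.6% and 30.5% to between 2.65% and 11.9%. In control S2 cells the order was *GstE6*, *GstE9*, *GstE7*, *GstE3*, *GstE5* and *GstE1*, where *GstE7* and *GstE3*, and *GstE5* and *GstE1*, overlapped. After depletion it was *GstE6*, *GstE3*, *GstE7*, *GstE9*, *GstE1* and *GstE5*, where the levels of *GstE3* and *GstE7*, and of *GstE7* and *GstE9*, overlapped.

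**Figure D3:**
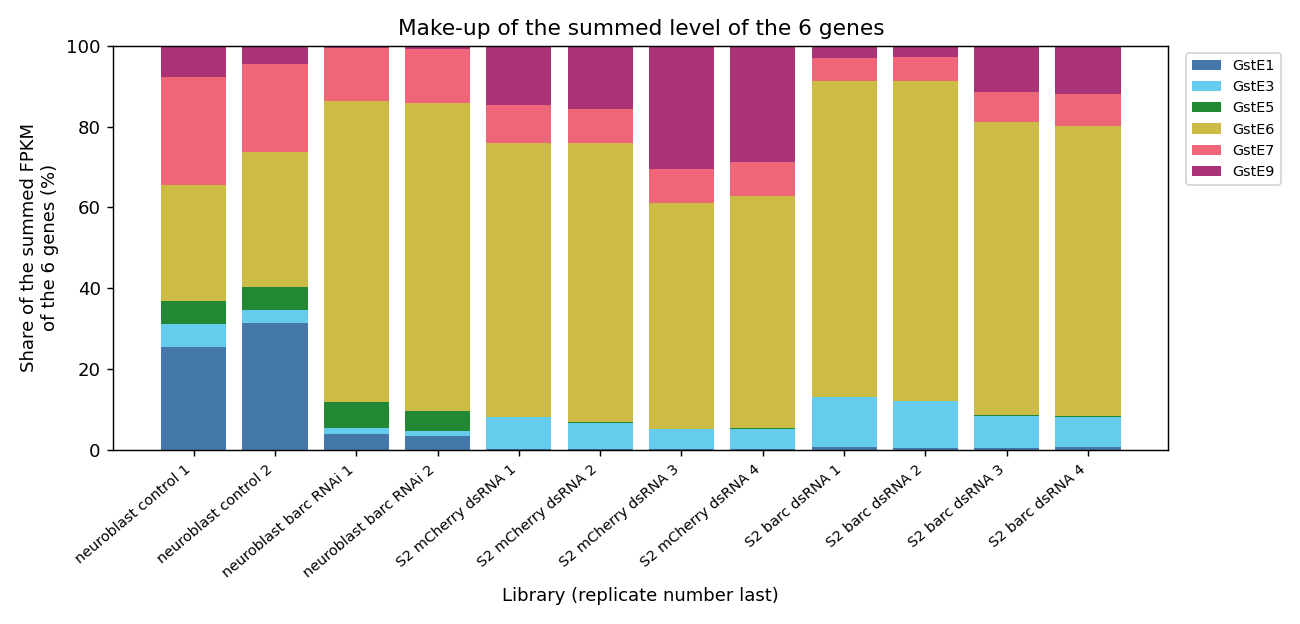
Share of each of the 6 genes in their summed FPKM (vertical axis, %) in each library (horizontal axis, replicate number last). *GstE6* holds 28.6% and 33.3% in the control neuroblasts and 74.6% and 76.1% after *barc* RNAi.

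The difference between the S2 replicate pairs was not used to pick the genes and could be tested. Across 8 libraries, with treatment in the limma fit, 26.5% of 7603 genes differed between replicates 3 and 4 and replicates 1 and 2 (13.5% higher and 13% lower in replicates 3 and 4). Rescaling to TPM moved the share of higher calls from 51.0% to 33.9%. Of the 5 epsilon genes tested, 3 were lower in replicates 3 and 4 and 1 was higher.

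*GstE3* was the most different, with a mean of 72.3 ± 31.5 FPKM (SD, 4 libraries) in replicates 1 and 2 and 29.4 ± 8.08 FPKM in replicates 3 and 4 (log2 difference -1.20, SE 0.12, limma adjusted p = 2.1e-04). Each SD in this paragraph spans libraries of both treatments and so includes the difference between treatments. *GstE6* was at 545 ± 139 and 297 ± 50.5 FPKM (-0.85, SE 0.11, adjusted p = 8.9e-04). *GstE7* was at 52.99 ± 5.74 and 37.0 ± 3.01 FPKM (-0.50, SE 0.097, adjusted p = 0.00611). *GstE9* went the other way, with 59.2 ± 42.7 and 94.4 ± 47.7 FPKM (0.84, SE 0.16, limma adjusted p = 0.00664). *GstE1* did not pass the test (-0.38, SE 0.19, adjusted p = 0.166), though it was called after quantile normalisation (-0.67, adjusted p = 0.0460).

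The direction of the 4 called genes was the same within each treatment. Among the mCherry libraries alone 1 of the 5 genes was called, *GstE3*, while *GstE6* (limma adjusted p = 0.0632), *GstE7* (0.105) and *GstE9* (0.214) were not. Among the *barc* libraries alone all 5 were. Over all tested genes, 567 of 7465 were called among the mCherry libraries and 5216 of 7671 among the *barc* libraries. The *barc* transcript itself differed between the pairs of depleted libraries (means of 5.80 and 3.12 FPKM), but not between the mCherry pairs (22.5 and 21.6 FPKM, with overlap), and its part in these differences was not tested. *GstE2* was lower in replicates 3 and 4 (-0.93, limma adjusted p = 0.00142), and *GstE8* did not pass (0.30, adjusted p = 0.0739).

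**Figure D4:**
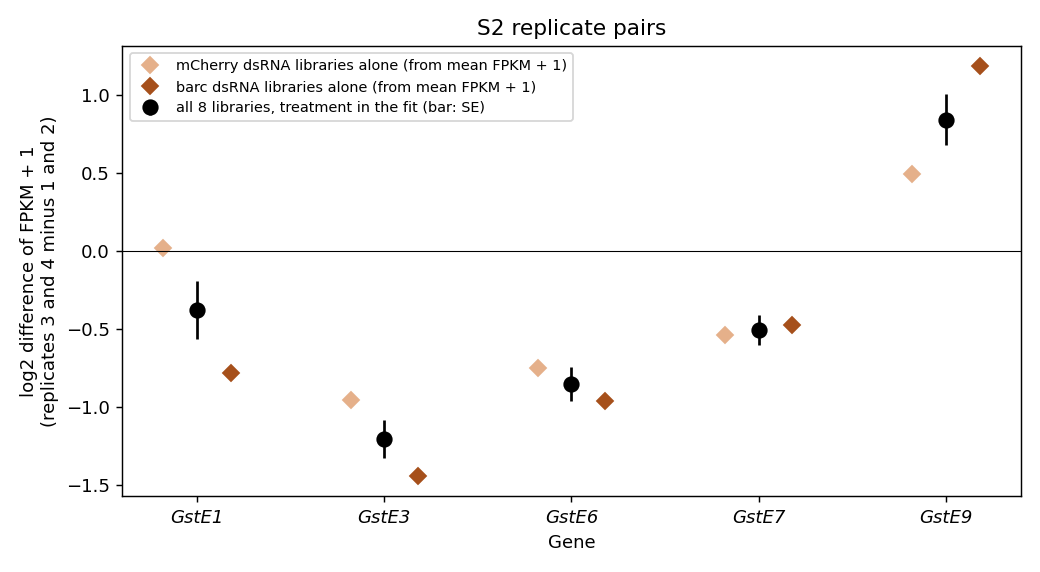
Log2 difference of FPKM + 1 between S2 replicates 3 and 4 and replicates 1 and 2 (vertical axis) for the 5 tested genes (horizontal axis); black dots with SE bars come from the fit over 8 libraries and diamonds from the group means of 1 treatment. *GstE3*, *GstE6* and *GstE7* stand at -1.20, -0.85 and -0.50, and *GstE9* at 0.84.

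The other epsilon class genes outside the cluster fell or did not pass the test. *CG11784* (current symbol *GstE13*) fell in neuroblasts (log2 change -0.91, SE 0.094, limma adjusted p = 1.6e-04, but 0.316 when both systems were fitted together) and in S2 cells (-2.19, SE 0.32, adjusted p = 0.00269). *CG16936* (*GstE12*) had a mean under 1 FPKM in neuroblasts and fell in S2 cells from 104 to 42.5 FPKM (-1.37, SE 0.32, limma adjusted p = 0.0152). *CG5224* (*GstE11*) did not pass in neuroblasts (-0.21, adjusted p = 0.332) or S2 cells (-0.32, adjusted p = 0.0841). *CG4688* (*GstE14*, or nobo, an enzyme of ecdysteroid hormone synthesis) had a mean under 1 FPKM in every group. In all, of 8 other epsilon genes, 3 were tested in neuroblasts (1 rose and 1 fell) and 5 in S2 cells (4 fell). Within S2 replicates 1 and 2 all 5 fell, and within replicates 3 and 4 all but 1 did. Over all tested genes 3369 of 7468 were called lower within replicates 1 and 2, and 474 of 7646 within replicates 3 and 4.

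Of 11 genes of the delta class, the sister class in insects, 5 were tested in neuroblasts and all 5 rose, with a median log2 change of 1.28. *GstD5* and *GstD6* (0.0872 and 0.249 FPKM in the controls) entered the test only through their *barc* RNAi libraries. For these genes a rise was a condition of being counted. *GstD5* rose from 0.278 ± 0.085 to 15.2 ± 7.76 FPKM (SD, 2 libraries each; 3.58, SE 0.27, limma adjusted p = 3.0e-05) and *GstD3* from 1.78 ± 0.36 to 8.98 ± 1.58 FPKM (1.84, SE 0.14, adjusted p = 3.2e-05). In S2 cells 9 were tested, with a median of 0.58, and limma called 0 of them, with 3 at an unadjusted p under 0.05. With the replicate block 5 were called higher and 2 lower, among them *GstD2* (1.47, adjusted p = 0.00234) and *GstD7* (-1.21, adjusted p = 0.00185). Both directions were also present within replicates 1 and 2 (6 higher and 3 lower) and within replicates 3 and 4 (3 higher and 1 lower). Over all tested genes the block called 1303 higher and 1475 lower of 7603. Within replicates 1 and 2 these numbers were 2091 and 3369 of 7468, and within replicates 3 and 4 they were 453 and 474 of 7646. How fragments shared by delta paralogs were divided is not given.

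**Figure D5:**
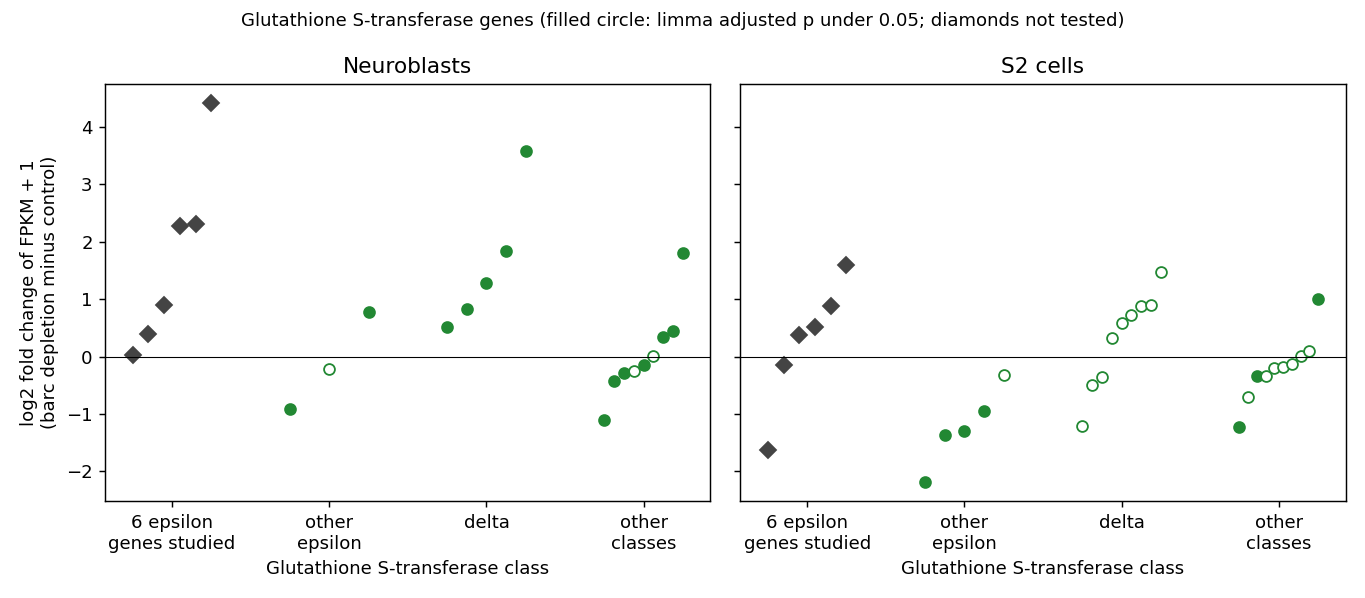
Log2 fold change of FPKM + 1 on *barc* depletion (vertical axis) by glutathione S-transferase class (horizontal axis) in neuroblasts and S2 cells; diamonds are the 6 genes described with no test, filled circles genes with a limma adjusted p under 0.05 and open circles genes that did not pass. All 5 tested delta genes lie above 0 in neuroblasts, where *GstD5* and *GstD6* entered only through their *barc* RNAi libraries. All 5 other tested epsilon genes lie below 0 in S2 cells.

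The remaining transferase classes moved both ways. In neuroblasts 9 of 12 were tested, of which 3 rose and 4 fell. *CG30000* (*GstT1*, theta class) rose (log2 change 1.80, SE 0.16, limma adjusted p = 8.6e-05), as did *CG6673* (*GstO2*, omega class; 0.34, SE 0.047, adjusted p = 7.4e-04). *Mgstl*, a microsomal enzyme, fell (-1.10, SE 0.16, adjusted p = 7.8e-04), and so did *GstS1*, the sigma class enzyme (-0.42, SE 0.086, adjusted p = 0.00512). In S2 cells 10 were tested, 1 rose and 2 fell. *Mgstl* fell (-1.23, SE 0.15, limma adjusted p = 0.00127), *CG6662* (*GstO1*) fell by a little (-0.34, adjusted p = 0.0495) and *GstS1* rose (1.00, SE 0.27, adjusted p = 0.0283). The *CG6662* call was lost with the replicate block (0.0716), after rescaling to TPM (0.215) and without any 1 library other than mCherry library 4 (0.0517 to 0.125), and that of *GstS1* without either of 2 mCherry libraries, 1 and 2, or any *barc* library (0.0503 to 0.0789).

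Regulators of the CncC pathway and genes of the glutathione and thioredoxin system were tested in the same way. Like all gene lists here, these were chosen with earlier results of these data known, so the counts are a description. Of 5 regulators of the CncC pathway 3 rose in neuroblasts, among them *cnc* itself (0.25, SE 0.064, limma adjusted p = 0.0145) and *ref(2)P*, the fly p62 (0.33, SE 0.074, adjusted p = 0.00778). These calls were lost without control library 1 (*cnc*, 0.0599) or 2 (*cnc*, 0.0941, and *ref(2)P*, 0.0507). In 1 limma fit over all 4 groups, 0 of these 5 genes and 0 of the 14 of the glutathione list below were called in neuroblasts, with 0 of either at an unadjusted p under 0.05. In S2 cells limma called 0 of the 5, with 2 at an unadjusted p under 0.05. Of 14 tested genes of the glutathione and thioredoxin system 4 rose and 3 fell in neuroblasts. *Gclc*, the catalytic subunit of the enzyme that limits glutathione synthesis, rose (0.85, SE 0.13, limma adjusted p = 0.00107), and so did the NADPH source *Men* (0.31, SE 0.052, adjusted p = 0.00178). The glutathione S-transferase domain gene *gfzf* fell (-0.30, SE 0.061, adjusted p = 0.00506), as did the catalase gene *Cat* (-0.16, SE 0.050, adjusted p = 0.0343). The *Cat* call was lost after rescaling to TPM (0.371) or without any 1 neuroblast library (0.0718 to 0.133), and that of *gfzf* without control library 1 (0.0508).

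In S2 cells 15 genes of that system were tested, 1 rose and 5 fell. *Gclc* was at 25.2 ± 13.6 FPKM (SD, 4 libraries) in the controls and rose to 129 ± 100 FPKM (2.05, SE 0.65, limma adjusted p = 0.0460). Its call was lost on leaving out any mCherry library or *barc* library 1 or 2 (0.0615 to 0.120), and with the replicate block it stood at 0.00155. *Gclm*, the modifier subunit, fell (-0.59, SE 0.13, adjusted p = 0.0144), and *Men* fell (-1.03, SE 0.15, adjusted p = 0.00273). With the replicate block 2 genes of the list rose and 5 fell, and after rescaling to TPM *Gclc* was not called (0.0503) and 2 fell.

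Conjugates leave the cell through ABC transporters. Of 4 such pumps tested in neuroblasts 3 rose, including FBgn0010549 (2.29, SE 0.17, limma adjusted p = 2.7e-05) and *CG11897* (1.33, SE 0.13, adjusted p = 1.4e-04). FBgn0010549, with a control mean of 0.338 FPKM, entered the test only through its *barc* RNAi libraries. Of 4 in S2 cells 1 rose, *MRP* (1.29, SE 0.41, limma adjusted p = 0.0454). That call was lost after rescaling to TPM (0.0524) and on leaving out any mCherry library or *barc* library 1 or 2 (0.0660 to 0.115), and 2 pumps rose with the replicate block. Cytochrome P450 enzymes oxidise foreign compounds ahead of conjugation, and a list of 12 of their genes was chosen with earlier results of these data known. All 3 of these that were tested rose in neuroblasts, 1 of them, *Cyp9f2*, at the edge of the threshold (0.38, SE 0.13, limma adjusted p = 0.04998). The number that rose was 2 after quantile normalisation and without either control library or *barc* RNAi library 1. The list was led by *Cyp4p2* (4.57, SE 0.14, limma adjusted p = 2.7e-07) and *Cyp4p1* (3.05, SE 0.13, adjusted p = 1.5e-06). Their control means were 0.433 and 0.0835 FPKM, so both entered the test only through their *barc* RNAi libraries. In S2 cells 2 of 7 rose, *Cyp6d2* from 1.03 ± 0.22 to 65.7 ± 15.2 FPKM (5.02, SE 0.18, limma adjusted p = 3.9e-06) and *Cyp6w1* (2.18, SE 0.34, adjusted p = 0.00349). *Cyp6w1* likewise entered only through its *barc* dsRNA libraries (control mean 0.210 FPKM). With the replicate block 4 rose and 1 fell.

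Of 10 stress transcription factors 3 rose and 2 fell in neuroblasts. The bZIP factors *Xrp1* (0.82, SE 0.086, limma adjusted p = 1.8e-04) and *CG6272* (*Irbp18*, 0.93, SE 0.13, adjusted p = 7.8e-04) rose. *foxo* (-0.71, SE 0.12, adjusted p = 0.00185) and *p53* (-0.25, SE 0.067, adjusted p = 0.0166) fell, the latter call being lost without control library 1 (0.114) or 2 (0.0638) or after rescaling to TPM (0.0886). In S2 cells 2 rose, *crc*, the fly ATF4 (0.64, SE 0.12, limma adjusted p = 0.00645), and *CG6272* (1.14, SE 0.32, adjusted p = 0.0297). *Hsf*, the heat shock factor, fell (-0.73, SE 0.17, adjusted p = 0.0157). Within replicates 3 and 4 alone *crc* (0.0673), *Hsf* (0.0643) and, of the genes above, *Gclm* (0.0567), *GstS1* (0.0644) and *CG6662* (0.268) were not called by limma. The *CG6272* call was lost without *barc* library 1 or 2 or mCherry library 3 or 4 (0.0612 to 0.0823), and with the replicate block 4 factors rose and 1 fell. *Xrp1* was among those that rose in S2 cells with that block (1.24, limma adjusted p = 0.00406). It stood at 271, 264, 111 and 205 FPKM with mCherry dsRNA and at 778, 758, 281 and 309 FPKM with *barc* dsRNA. In neuroblasts *crc* rose with the replicate block (0.37, limma adjusted p = 9.6e-06), from 421 and 435 to 583 and 527 FPKM.

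Genes with the most similar course over the 12 libraries were found by the root mean square difference of log2(FPKM + 1), each gene centred on its control mean in each system, among 6294 genes tested in both systems. This is a description, and the points share libraries and controls. *GstE6* was nearest to *Pvf2*, which encodes a growth factor of the PDGF and VEGF family (difference 0.42, log2 change 3.75 in neuroblasts and 0.05 in S2 cells), and to *Gadd45*, a stress response gene (0.54). *GstE7* was nearest to *CG31549* (0.16) and to the theta class gene *CG30000* (0.22), and *GstE5* to *CG43144* (0.31) and *CG31549* (0.32). *GstE3* was nearest to *CG3008* (0.16) and *eIF6* (0.18), a translation initiation factor gene. *GstE1* was nearest to *N*, the Notch receptor gene (0.18), and to the fatty acid desaturase gene *desat2* (0.19). *GstE9* was nearest to *CG1827* (0.23) and to *PH4alphaEFB*, a prolyl hydroxylase subunit gene (0.23). Among the 6 genes the pair most alike by this measure was *GstE5* and *GstE7* (0.38), which are not adjacent, followed by *GstE1* and *GstE3* (0.60). The measure was computed with a pseudocount of 1 only, and *GstE5* was read from few fragments in S2 cells. With a pseudocount of 0.1 the log2 changes of *GstE5* and *GstE7* lay further apart. They were 3.28 and 2.61 in neuroblasts and 0.76 and -0.16 in S2 cells. The pair most unlike was *GstE6* and *GstE9* (2.30), and the adjacent genes *GstE6* and *GstE7* differed by 0.98.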

How the data were processed

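FPKM values are as the authors deposited them, in 1 Cufflinks-type gene table per library, per the file headers. The authors also deposited 2 tables of group comparisons, per the file headers: group mean signal, fold ratio, log2 of that ratio, and raw and adjusted p-values. Per the submitters' processing notes, DESeq, HTSeq, Cufflinks 1.3.0, TopHat 1.4.1 and BWA 0.6.1 were used, in no stated role. The build is not given in the sources used here. Starts in the tables count from 0 and are printed counting from 1, and they differ from release 6 on 2R by 4112495 bases. No column was left unused (0 columns of other samples). Gene sequences were not analysed here.

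The 6 genes and all gene lists were chosen with earlier results of these data known. Changes were computed on log2(FPKM + 1), which understates those of low genes. Genes with a mean of at least 1 FPKM in a system and no failed estimate (47 and 41 left out for it in neuroblasts and S2 cells) were tested with limma 3.58.1 (R 4.3.3), 1 fit per system, two-sided, Benjamini-Hochberg over all tested genes. The fit was tested on simulated data. The interaction between systems, in 1 limma fit over 4 groups, was added after seeing the data. No FPKM table holds counts, so no count test was run. Always named were the 6 genes, other epsilon genes, the cluster with 3 neighbours per side and *barc*, and from each other list up to 2 risen and 2 fallen genes per system by smallest adjusted p.

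Implied fragments were computed from FPKM and its upper confidence bound as (2 FPKM / (bound - FPKM)) squared, and came out whole within 0.02 for 91.6% to 92.3% of the genes checked. No replicate pair agreed within sampling noise (chi-square per degree of freedom at least 9.90). In S2 cells, deviations from group means correlated between same-numbered libraries of the treatments (r = 0.58, 0.59, 0.59 and 0.45), as did differently numbered libraries within replicates 1 and 2 or 3 and 4 (0.33 to 0.62), while r was negative otherwise. The number was taken to pair them, with no statement of it in the labels, and a fit with the replicate number as a block was run. Other alternatives were a pseudocount of 0.1, no filter, TPM, quantile normalisation, each library left out, 1 fit over 4 groups and the S2 replicate pairs.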

Additional observations from a re-analysis of the deposited data

Results flagged for a closer look

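*GstE8* changed in opposite directions in the 2 systems, and the interaction was tested: its log2 change in S2 cells minus that in neuroblasts was -1.73. Other genes named above lay above all controls in one system and below all controls in the other, a difference that was not tested. In S2 minus neuroblast log2 change these were *Hsf* (-0.86), *Men* (-1.34), *ref(2)P* (-0.82), *GstS1* (1.42) and *p53* (0.77). One value stood far from its group. *p53* was at 22.5 FPKM in the mCherry library of replicate 4 and between 28.7 and 29.1 FPKM in the other 3. It was the 1 such value among 77 gene and group combinations examined, where chance gives about 1 in 20.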

How the results depend on the processing

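All 6 genes kept the sign of their log2 change under every alternative run, except *GstE9* in neuroblasts, which turned under quantile normalisation (-0.06) and without control replicate 2 (-0.11) or *barc* RNAi replicate 2 (-0.03). With a pseudocount of 0.1 the median of the 6 genes in neuroblasts was 2.15. The number of genes called in neuroblasts (2888) was between 1847 and 2959 with 1 library left out, and 356 in 1 fit over all 4 groups, where 2 of 5 delta genes kept the call and *GstE8* lost it (adjusted p = 0.0777). In that 4-group fit limma called 0 neuroblast genes of the glutathione list (4 rose and 3 fell otherwise; *Gclc* 0.773, *Men* 0.500), 0 CncC regulators (3 rose), 1 stress factor, which fell (3 rose and 2 fell; *Xrp1* 0.568), and 0 other epsilon genes (2 at an unadjusted p under 0.05). It called 1 higher and 1 lower of the other transferase classes (3 and 4), and 2 higher each of the pumps and of the P450 genes (3 each). In S2 cells (2030) it was between 1104 and 2513 with 1 library left out, 3496 with the first number as a block, 5460 within replicates 1 and 2 and 927 within replicates 3 and 4. Between S2 replicate pairs (2018) it was between 1131 and 2944 with 1 library left out, 567 within the mCherry libraries and 5216 within the *barc* libraries, and the number of the 6 genes called there fell from 4 to 1 within the mCherry libraries. The replicate block gave 2778 calls in S2 cells. In neuroblasts same-numbered libraries share only a number (r of deviations 0.07) and the block gave 3158 calls, with *CG12263* called lower (adjusted p = 0.0183) and *Cyp9f2* not called (0.0522). The causes of these differences were not tested. Depth limits *GstE5* in S2 cells, *GstE9* and *GstE3* in neuroblasts and *GstE1* in S2 controls, all read from few fragments. With 2 libraries per neuroblast group, SEs rest on little.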
